A study of Mus musculus with 2 samples.

Results

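Ccdc80 and Tmem45a are a pair of genes that the array design places on mouse chromosome 16 and whose transcripts had among the highest ratios in Mybbp1a knockdown myoblasts. They were chosen by those ratios of knockdown over control on the same arrays, so their own values are a description and carry no test. Each was read by 1 probe, so the pair makes up 2 of 41174 distinct probes and 2 of 18068 genes tested. The data are 2 two-colour arrays of C2C12 cells, an established mouse myoblast line derived from adult C3H leg muscle and kept subconfluent in growth medium. On both arrays RNA of cells with a stable short hairpin RNA against Mybbp1a carried Cy5, and RNA of cells with a control hairpin carried Cy3. Both RNAs came from stable clones, whose number the labels do not give, so the control cells also carried a hairpin. Since the dyes were never swapped, a dye bias cannot be told apart from the knockdown. Nor can a difference between the knockdown clones and the control clones. The labels call the arrays biological replicates without saying what was independent between them, and p-values then cover only the spread of these samples, possibly technical.

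Ccdc80, also known as DRO1, URB and Ssg1, encodes a secreted protein of the extracellular matrix. In preadipocytes it is known to favour differentiation and to oppose Wnt/beta-catenin signalling, and it binds fibronectin and heparin. It shares a domain with the sushi-repeat proteins Srpx and Srpx2. Tmem45a encodes a membrane protein with several predicted transmembrane segments and an incompletely known function. It has been linked to the response to hypoxia and to keratinisation of the epidermis. The ratios of these 2 transcripts are described here beside those of their neighbours on the chromosome and of genes tied to their known roles. Because the pair was chosen for its ratios, its distance from other genes is not a finding.

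The probes are shown because every value of these genes rests on them. The first 30 of the 60 bases of each are given, 5′ to 3′ in the orientation of the design.
Ccdc80, A_51_P248786: agtttccccttcatctgctaaagctgtgtg
Tmem45a, A_51_P288876: tctggtctcaagaacacttgtctgaggctg
The Ccdc80 probe lies at chr16:45046871-45046930 of build mm8 on the plus strand and targets RefSeq transcript NM_026439. The Tmem45a probe lies at chr16:56731506-56731565 on the minus strand and targets NM_019631, 11.7 Mb away. Which exon or untranslated region they fall in was not analysed here. Both probes had a GC content of 45.0%. The longest run of bases that the Ccdc80 probe shared in the same orientation with any of the 41173 other probes was 14, and it was also 14 for Tmem45a. With 1 probe for each gene, the arrays hold no second measurement of either transcript.

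Mybbp1a, the targeted gene, was lower in knockdown cells, with a log2 ratio of -1.64 on array 1 and of -1.91 on array 2; its limma adjusted p was 0.176, the lowest in the fit, which it shared with other genes. Both dyes read it well above background. Non-control spots had median signals from 159 to 449 over background medians from 44.0 to 52.0, and from 64.9% to 79.7% of them were well above background. Of 8 myoblast markers, among them Myod1, Myf5, Des and Cdh15, all 8 were well above background in both dyes on both arrays. Their summed processed signal in knockdown cells was 0.940 times that of control cells on array 1 and 0.948 times on array 2. Such a sum weighs bright markers most, and Chrna1, the brightest of the 8, had log2 ratios of -0.06 and -0.23. The median log2 ratio of the 8 was 0.11. On both arrays 4 were higher and 2 lower, beside 40.6% and 29.4% of all tested genes. In such bulk RNA, a change in the number of cells of a type and a change in RNA per cell cannot be told apart.

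Ccdc80 signal was bright in knockdown cells and well above background in control cells. On array 1 the Cy5 spot of the knockdown RNA read 125100 scanner units, with a pixel SD of 14360 over 62 pixels, above a local background of 51.0. The Cy3 spot of the control RNA read 3031 with a pixel SD of 252 above a background of 45.5. On array 2 the spots read 121800 with a pixel SD of 13220 in Cy5 and 2102 with a pixel SD of 251 in Cy3. The Cy5 reading was the higher one on each array before any normalization of the dyes, and the transcript was detected in the control cells too.

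Ccdc80 raw spots differed 41.3-fold on array 1 and 58.0-fold on array 2. Normalization lowered these ratios, since Cy5 was the brighter dye over the whole array, and took 1.38 off the log2 ratio of array 1 and 1.46 off that of array 2. After loess, array 1 gave a log2 ratio of knockdown over control of 3.99 and array 2 one of 4.40. Their mean was 4.20 ± 0.29 (SD, n = 2), or 18.3-fold higher. Feature Extraction's own processed signals were 48480 against 2834 on array 1 and 68580 against 3048 on array 2. Its log2 ratios were 4.10 and 4.49, with errors of 0.44 and 0.47 in its model of a single array. The control signals were alike on the 2 arrays after this processing and the knockdown signals differed by 1.42-fold, although the arrays were not scaled to each other.

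Tmem45a had the same pattern at a smaller ratio. On array 1 its spot read 41410 in Cy5 with a pixel SD of 5058 and 2839 in Cy3 with a pixel SD of 323. On array 2 it read 60360 with a pixel SD of 7089 and 2939 with a pixel SD of 388. Knockdown exceeded control on both arrays. After loess, array 1 gave a log2 ratio of 2.55 and array 2 one of 2.92. Their mean was 2.74 ± 0.26 (SD, n = 2), or 6.66-fold higher. Processed signals were 15130 against 2581 on array 1 and 32420 against 4241 on array 2, so both channels were brighter on array 2 and the ratio moved less than either channel. Both genes had the higher ratio on array 2.

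**Figure D1:**
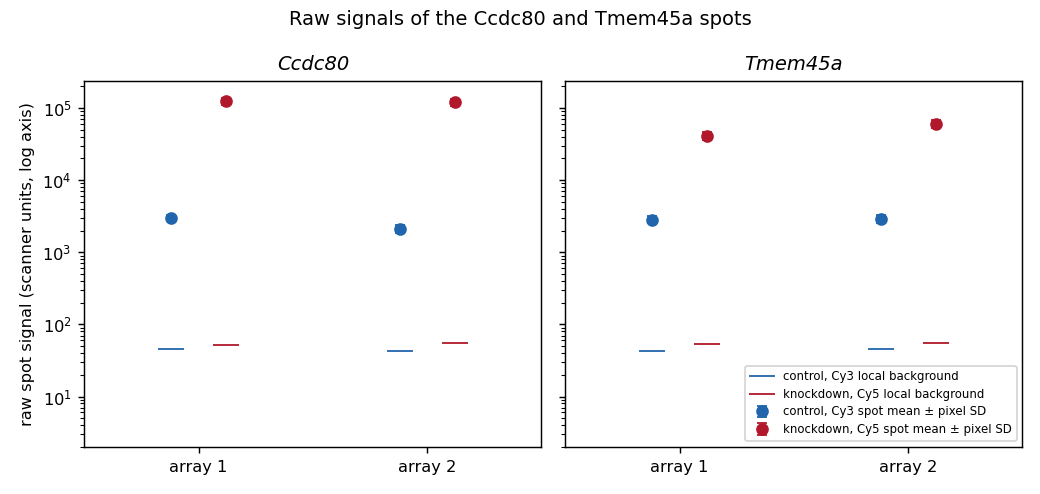
Raw spot signals of Ccdc80 and Tmem45a on a log axis, with knockdown RNA (Cy5) in red and control RNA (Cy3) in blue for each array. Points are spot means with the SD of their pixels, which is mostly smaller than the symbol, and short lines are local backgrounds; the red point lies above the blue one in all 4 pairs, from 41410 against 2839 for Tmem45a on array 1 to 121800 against 2102 for Ccdc80 on array 2.

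No spot of either gene was saturated or marked as an outlier. The spread between replicate spots within an array was small: among probes printed at least 8 times and well above background in both dyes, the median SD of the log2 ratio was 0.04 over 156 probes on array 1 and 0.04 over 183 probes on array 2. The largest such SD was 0.25 and 0.37. Neither Ccdc80 nor Tmem45a was printed more than once, and this spread within an array does not cover that between samples.

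The scanner read each slide a second time at lower gain, and bright spots were taken from that scan and scaled up. The Cy5 readings of both genes came from this scan on both arrays and their Cy3 readings did not. The same combination held for 1358 tested genes, the pair included, and their median log2 ratio was 0.02. As loess centres ratios near 0 at each brightness, this median is no check of the scan. Of these genes 9 (0.663%) were at least 2-fold higher on both arrays, beside 114 of all 18068 tested genes, the 0.631% that is the background of this count. Ccdc80 and Tmem45a were the only 2 of the 1358 at least 4-fold higher on both arrays, out of 6 such genes in all. Since the pair was chosen for its ratios, nothing is read from its place in these counts.

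Loess centres the ratios near 0 at each brightness, so the medians of genes of similar brightness are set by it. Their spread is given as a description, since the pair was chosen for its high ratios and would exceed it. The 500 tested genes nearest to Ccdc80 in mean intensity had a median log2 ratio of -0.04 with an SD of 0.31 across genes, and the highest of them, the chemokine Cxcl5, had 1.51. The 500 nearest to Tmem45a had a median of -0.03 with an SD of 0.31 and a highest value of 2.17, that of Plac8. Under median centring in place of loess the pair had 4.55 and 3.06, and the whole fit then had a median of 0.21.

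Ccdc80 had the highest mean ratio of all tested genes after loess, with rank 1 on array 1 and rank 2 on array 2. Tmem45a had rank 3 by mean, 13 on array 1 and 9 on array 2. Col1a1, a chain of type I collagen, stood between them with 1.71 on array 1 and 4.60 on array 2, and the membrane glycoprotein Gpm6b followed Tmem45a with 3.13 and 1.85. By the lower of its 2 ratios, Tmem45a had rank 2. These ranks differed with the processing. With the processed signals, Ccdc80 had rank 2 and Tmem45a rank 22 of 18068, at mean log2 ratios of 4.29 and 2.74, and 15 of the 21 genes ahead of Tmem45a had a control signal not well above background on both arrays. Over all 41084 probes with a value, the ranks were 1 and 3 by loess, and 2 and 26 by processed signal.

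**Figure D2:**
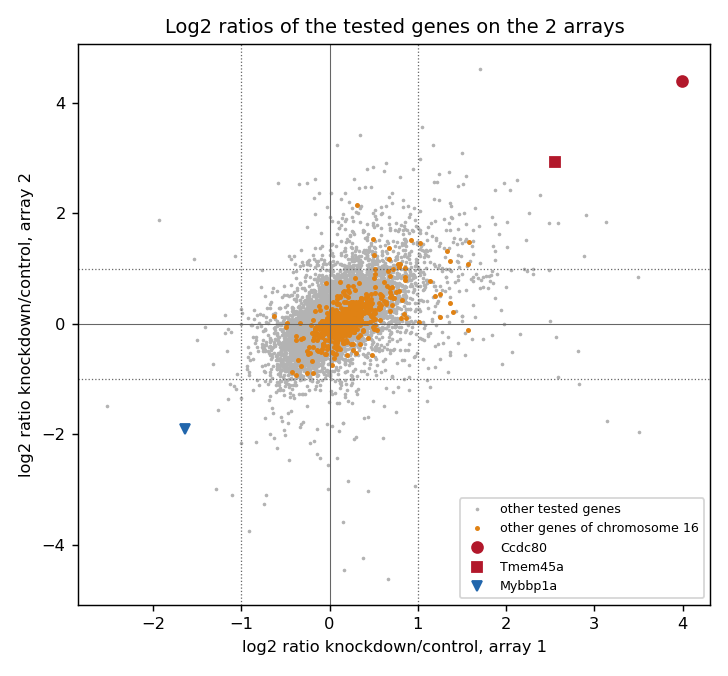
Log2 ratio of knockdown over control on array 1 (x axis) against array 2 (y axis), one point per tested gene, with other genes of chromosome 16 in orange and dotted lines at 2-fold. Ccdc80 (3.99, 4.40) and Tmem45a (2.55, 2.92) lie near the diagonal at the upper right, and Mybbp1a (-1.64, -1.91) at the lower left.

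The genes nearest to each of the pair by ratio were found by the Euclidean distance between their log2 ratios over the 2 arrays. For Ccdc80 the nearest was Tmem45a, at a distance of 2.07, followed by Col1a1 at 2.29 and the actin filament-associated gene Afap1l1 at 2.59. Tmem45a was thus the closest, though its mean was 2.74 against 4.20. For Tmem45a the nearest were Afap1l1 at 0.53, the X-linked Ott at 0.61 and the ciliary gene Cys1 at 0.68. Their ratios were 2.12 and 2.61 for Afap1l1, 2.39 and 2.33 for Ott, and 1.98 and 2.55 for Cys1. None of these lies on chromosome 16. The control signal of Afap1l1 was well above background on only 1 array. These distances hold for the loess ratios: under the processed signals the mean of Afap1l1 was 3.69 ± 1.65 (SD, n = 2), that of Ott 3.33 and that of Cys1 2.73, while Tmem45a stayed at 2.74. With 2 arrays such a likeness says only that the ratios were of similar size.

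The nearest tested genes beside Ccdc80 had single-array log2 ratios from -0.08 to 1.19. Slc35a5, a sugar-nucleotide transporter whose probe lies 13.5 kb away, had 0.25 on array 1 and 0.00 on array 2. Atg3, an autophagy conjugation enzyme 56.2 kb away, had 0.15 and -0.08. On the other side, Cd200r3 at 169.8 kb had 0.20 and 0.18, Gtpbp8 at 388.2 kb 0.32 and 0.11, and the unnamed transcript TC1662831 at 390.5 kb 0.24 and 0.36. The highest ratio within 1 Mb of Ccdc80 was that of Cd200, an immunoregulatory membrane glycoprotein 254.8 kb away, with 1.19 on array 1 and 0.51 on array 2. Limma called none of them, as it called no gene of the whole fit, with adjusted p between 0.191 for Cd200 and 0.863 for Atg3. Since Ccdc80 was chosen for its high ratio, nothing is read from its distance to these genes.

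The nearest tested genes beside Tmem45a had single-array log2 ratios from -0.52 to 0.69. Tfg, a secretory pathway protein 116.1 kb away, had 0.04 and -0.24, and Impg2 at 535.6 kb had 0.06 and 0.17. Senp7, a SUMO protease at 618.3 kb, had 0.23 and 0.38. On the other side, Tomm70a, a receptor of the mitochondrial import machinery at 342.6 kb, had 0.04 and -0.52, Nit2 at 346.9 kb had 0.22 and -0.21, and the Rab GTPase-activating protein gene Tbc1d23 at 358.9 kb had 0.69 and 0.48. Limma called none of these 6, whose adjusted p lay between 0.182 for Tbc1d23 and 0.993 for Nit2. Tmem45a too was chosen for its high ratio, so nothing is read from its distance to them. Tmem45a2, a relative and a neighbour on the chromosome, had 2 probes and neither was well above background, so it was not tested.

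Within 1 Mb of either gene 45 other genes were tested, 22 around Ccdc80 and 23 around Tmem45a. With the pair included, probes there covered 34 genes around Ccdc80, of which 23 were tested. Around Tmem45a they covered 30, of which 24 were tested. The others have no ratio here. The mean ratios of the 45 ran from -0.31 to 0.85, beside 2.74 for Tmem45a and 4.20 for Ccdc80. Since the pair was chosen for its high ratios, nothing is read from this distance. None was at least 2-fold higher or lower on both arrays, beside backgrounds of 0.631% and 0.0553%. They had a median of 0.11 (0.19 on array 1, 0.04 on array 2), where all tested genes had 0.03. Of the 45, 26 were higher on both arrays and 5 lower on both, beside 40.6% and 29.4% of all tested genes. Limma called 0 of them, against 0.0% of all genes, and at an unadjusted p under 0.05, 13 were higher and 0 lower, beside 13.4% and 7.49% in the whole fit.

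**Figure D3:**
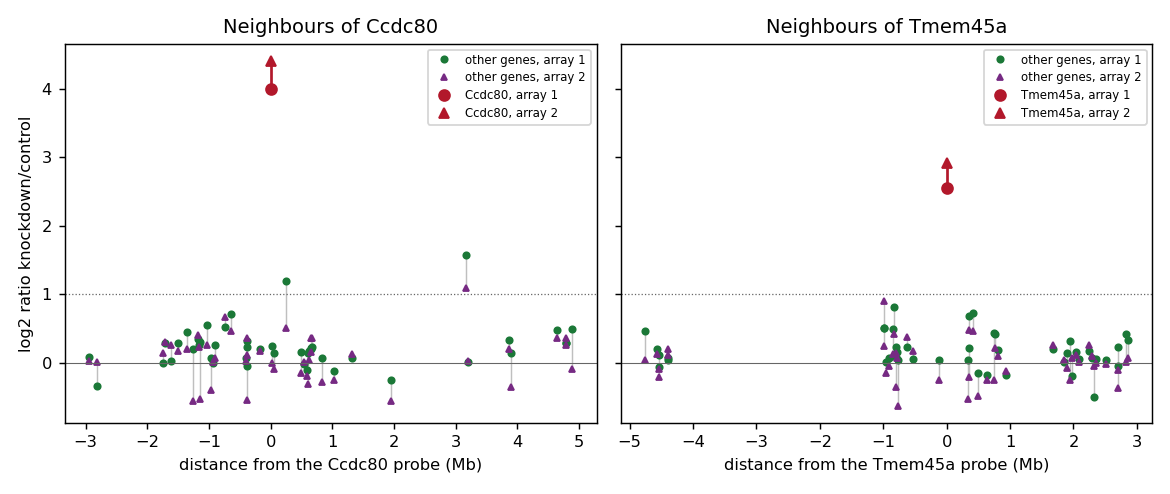
Log2 ratios of the tested genes within 5 Mb of the Ccdc80 probe (left) and of the Tmem45a probe (right) by distance in Mb, with array 1 as circles and array 2 as triangles joined per gene, and a dotted line at 2-fold. Both named genes, chosen for their high ratios, are in red. The other genes lie mostly between -0.5 and 1, with Cd200 and, at 3166.6 kb from Ccdc80, Dppa4 the highest.

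Chromosome 16 as a whole had ratios slightly above 0. Its 571 tested genes without the pair had a median log2 ratio of 0.11 (0.16 on array 1, 0.07 on array 2), where the median over the whole fit was 0.03 on each array. After loess this was the highest median of 20 chromosomes by the mean of both arrays, with chromosomes 14 and 15 next at 0.10 each. By array, chromosome 16 had rank 1 on array 1, ahead of chromosome 10 at 0.14, and rank 3 on array 2, behind chromosome 14 at 0.20 and chromosome 15 at 0.18. Chromosomes 14 and 15 each had 0.02 on array 1. The order of chromosomes therefore differed between the arrays, and chromosome 16 was the only one among the 3 highest on both.

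The small shift was seen in many genes rather than a few large ratios. On chromosome 16, 328 of 571 genes (57.4%) were higher on both arrays and 79 lower on both, whereas among all tested genes 40.6% were higher on both and 29.4% lower. Chromosomes 10, 15 and 14 came next, with 49.8%, 47.0% and 44.9% higher on both and 18.1%, 19.2% and 18.7% lower. Limma called 0 of them after adjustment. Before adjustment 141 genes were higher and 13 lower with p under 0.05, beside 13.4% and 7.49% of the whole fit. Genes at least 2-fold higher on both arrays numbered 5 of 571 (0.876%), close to the background of 0.631%, and 0 were lower. In 10 Mb stretches with at least 20 genes, all 8 medians of the mean ratio lay between 0.04 and 0.14, all above the median of all tested genes. By array they ran from 0.07 to 0.23 on array 1 and from 0.03 to 0.11 on array 2. All tested genes had 0.03 on each array, so on array 2 some stretches stood at that level. The 46 genes between Ccdc80 and Tmem45a had a median of 0.12, and the 525 outside that stretch 0.11. The median intensity of the genes was 10.28 on the log2 scale, against 10.32 for all genes. The pair had 4.20 and 2.74 beside the chromosome's median of 0.11. As the pair was chosen for those ratios, nothing is read from the difference. No test of the chromosome was made, since its genes are not independent replicates, and the cause of the shift was not tested. With no filter on dim probes the median was 0.042, against 0.016 for all genes, and chromosome 16 had rank 3 by the mean of both arrays. It also had rank 3 by the mean over probes, and rank 2 under the processed signals, median centring and an offset of 16. It had rank 1 on array 1 under every setting tried other than leaving out an array, and rank 3 or 4 on array 2.

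**Figure D4:**
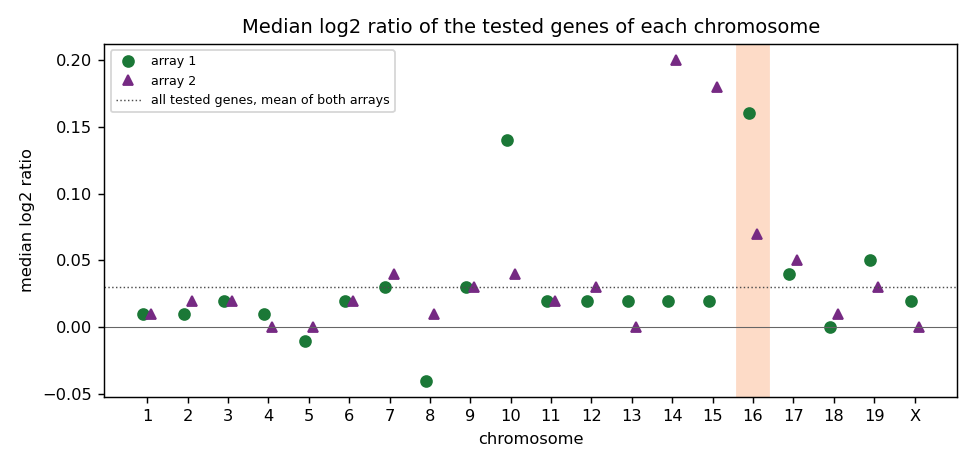
Median log2 ratio of the tested genes of each chromosome on array 1 (circles) and array 2 (triangles), without Ccdc80 and Tmem45a, with chromosome 16 shaded and the median of all tested genes dotted. Chromosome 16 stands at 0.16 and 0.07, chromosome 10 is high on array 1 and chromosomes 14 and 15 on array 2.

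The highest ratios on chromosome 16 after the pair were those of Cebpd at 1.58 and 1.48, Dppa4 at 1.57 and 1.09, Adamts5 at 1.33 and 1.31, Tprg at 1.03 and 1.47, and Muc13 at 1.37 and 1.13. Cebpd encodes a transcription factor that acts early in adipogenesis, and Adamts5 an aggrecan-cleaving protease. All 5 were at least 2-fold higher on both arrays, and Dppa4's control signal was well above background on only 1 array. This order held after loess and not under the processed signals, where Dppa4 had 3.03 ± 2.05 (SD, n = 2), above the 2.74 of Tmem45a, and Tprg had 1.94, Muc13 1.75, Cebpd 1.46 and Adamts5 1.41. They lay from 3166.6 kb (Dppa4) to 40704.8 kb (Adamts5) away from Ccdc80. The lowest were Adamts1, a protease related to Adamts5, at -0.38 and -0.93, the adhesion gene Igsf11 at -0.43 and -0.88, and the purine synthesis gene Gart at -0.26 and -0.89. Limma called none of these 8, with adjusted p between 0.176 for Cebpd and 0.234 for Gart. Of the 114 genes at least 2-fold higher on both arrays, 7 lie on chromosome 16, Ccdc80 and Tmem45a included.

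Relatives of the pair gave little signal. Srpx2, which shares its domain with Ccdc80, had 1.61 on array 1 and -0.27 on array 2, so that its direction differed between the arrays. Srpx, Tmem45b and Tmem45a2 were not well above background in either dye on both arrays and were not tested. Tmem45b, a paralog of Tmem45a, thus has no ratio here.

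Genes of adipogenesis, the process in which Ccdc80 is best known, were led by the C/EBP factors and Lpl, while Pparg and Fabp4 stood near 0. Of 13 genes 9 were tested, with a median log2 ratio of 0.15 beside 0.03 for all genes, and 6 were higher on both arrays and 0 lower, beside 40.6% and 29.4% of all tested genes. Besides Cebpd, Lpl, which encodes lipoprotein lipase, was at least 2-fold higher on both arrays, with 1.21 and 1.56, so that 2 of the 9 were, against 0.631% of all genes. Cebpa and Cebpb, further factors of the same family, had 0.46 and 0.70, and 0.65 and 0.42. Pparg, the master regulator of fat cell differentiation, had -0.13 and 0.04, and its target Fabp4 had 0.04 and -0.21. Adipoq, Plin1, Cd36 and Klf15 were not tested. Limma called 0 of the 9. Before adjustment 4 were higher with p under 0.05 and 0 lower, against 13.4% and 7.49% of all genes.

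Targets of Wnt/beta-catenin signalling, which Ccdc80 is known to oppose, had ratios in both directions. Of 15 genes 9 were tested, with a median of 0.05 that was 0.32 on array 1 and 0.01 on array 2. On both arrays 5 were higher and 2 lower, beside backgrounds of 40.6% and 29.4%. Tcf7, a transcription factor of the pathway, had 0.64 and 0.66, and Apcdd1, an inhibitor of it, 0.55 and 0.55. Ccnd1, which encodes cyclin D1, had -0.15 and -0.28, and Lef1 had 0.32 and -1.17. Axin2, a direct feedback target, was not well above background and was not tested. None was at least 2-fold apart in one direction on both arrays, and limma called 0, with 4 higher and 0 lower before adjustment, beside 13.4% and 7.49% in the whole fit. Under the processed signals the list's median was -0.0099.

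Fibronectin, its receptor and heparan sulfate proteoglycans, partners to which Ccdc80 can bind, had a median of 0.28 over 10 tested of 13 genes. On both arrays 6 were higher and 0 lower, where the backgrounds are 40.6% and 29.4%. Fn1 itself had 0.35 and 0.01 and its receptor chains Itga5 and Itgb1 had means of 0.10 and -0.01. Agrn, a basement membrane proteoglycan, had the highest mean, 1.06 ± 1.12 (SD, n = 2), from 0.27 on array 1 and 1.86 on array 2. Gpc6, a glypican, had the lowest, with -0.71 and 0.29. Limma called 0 of the 10, with 2 higher and 0 lower before adjustment, where 13.4% and 7.49% of all genes were.

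Hypoxia response genes, to which Tmem45a has been linked, had higher ratios on array 2 than on array 1. All 15 were tested, and their median log2 ratio was 0.18 on the first array and 0.85 on the second. On both arrays 14 of 15 were higher and 0 lower, beside backgrounds of 40.6% and 29.4%. Pdk1, which restrains pyruvate entry into the Krebs cycle, had 0.96 and 2.09, and Bnip3, a mitophagy receptor, 1.00 and 1.74, of which the first was just under 2-fold before rounding. The glucose transporter gene Slc2a1 had the lowest mean, with 0.11 and 0.17, and Vegfa had 0.41 and 0.52. None was at least 2-fold higher on both arrays, and limma called 0, with 7 higher and 0 lower before adjustment, against 13.4% and 7.49% in the whole fit. The ratio of Tmem45a was 2.55 on array 1, where the list stood at 0.18, and 2.92 on array 2, where the list stood at 0.85. Any relation between these genes and the ratio of Tmem45a was not tested.

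**Figure D5:**
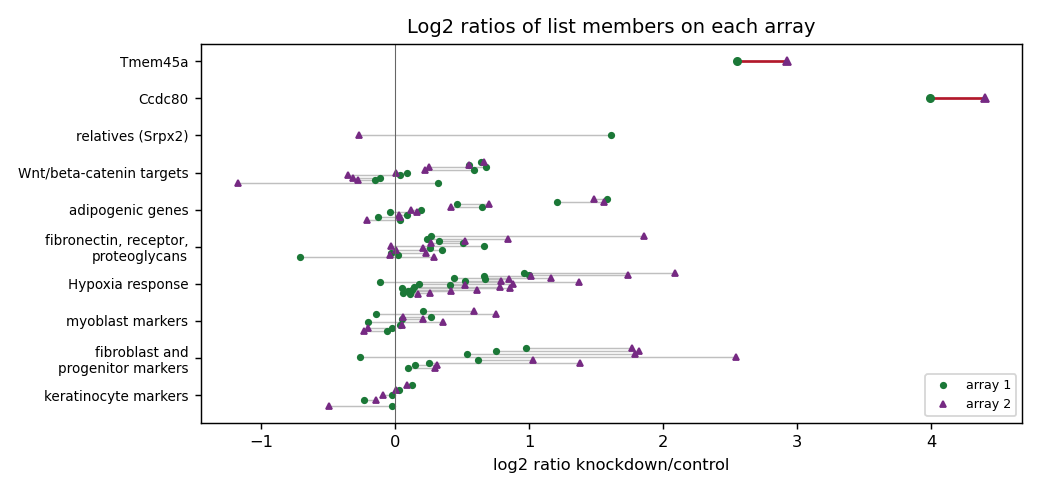
Log2 ratios of the tested members of each gene list on array 1 (circles) and array 2 (triangles), joined per gene. Ccdc80 and Tmem45a, chosen for their high ratios, are in the top rows. Every list member lies below Tmem45a's 2.92 on both arrays; the fibroblast and hypoxia lists lie further right on array 2 than on array 1.

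Markers of fibroblasts and mesenchymal progenitors, cells in which Ccdc80 is also abundant, had a higher sum in the knockdown RNA, mainly on array 2. Of 9 markers, 8 were well above background in Cy5 on both arrays, and in Cy3 8 on array 1 and 7 on array 2. Their summed processed signal was 156500 in knockdown and 120600 in control on array 1, or 1.30-fold, and 255600 and 74930 on array 2, or 3.41-fold. The 8 tested markers had a median log2 ratio of 0.39 on array 1 and of 1.57 on array 2. On both arrays 7 of the 8 were higher and 0 lower, with backgrounds of 40.6% and 29.4%. Pdgfra, a receptor that marks mesenchymal progenitors, had 0.98 and 1.77, Col3a1 0.75 and 1.82, and Cd34 -0.26 and 2.54, whereas Lum had 0.10 and 0.30. Thy1 was not tested. Ccdc80 had 3.99 on array 1, where these markers were least apart, and 4.40 on array 2. Their part in the ratios of Ccdc80 and Tmem45a was not tested. Limma called 0 of the 8, with 4 higher and 0 lower before adjustment, where the whole fit had 13.4% and 7.49%.

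Keratinocyte markers, taken up because of the link of Tmem45a to the epidermis, stayed near 0. Summed over 7 markers, knockdown and control signals were 1567 and 1533 on array 1 and 3100 and 3367 on array 2. The median log2 ratio of the 5 tested was -0.05. Krt10 had the highest mean, 0.11 ± 0.03, and Krt14 the lowest, -0.25 ± 0.33 (SD, n = 2).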

How the data were processed

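Mean and background intensity of each spot were deposited by the authors as Agilent Feature Extraction 9.5.3.1 wrote them, per the file headers, with processed intensities and a log10 ratio of Cy5 over Cy3. The deposited value table held log2 ratios within 0.001 of that log10 ratio for 99.4% of values on each array, with medians of 0. The processed signal, per the file headers, was background-subtracted and dye-normalized. Pixel numbers and flags (other columns) came from the same deposited files.

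Signals were corrected by normexp (offset 50) and loess-normalized (span 0.3) in limma 3.58.1 under R 4.3.3, without the 1639 control spots and flagged spots (154 and 237). Probes were named through RefSeq (GRCm38.p6). A probe was tested where well above background in at least 1 dye on both arrays, with the brightest probe per gene. Ratios were tested against 0 with limma (two-sided, Benjamini-Hochberg, adjusted p under 0.05) on 1 residual degree of freedom. The fit was tested on simulated data. On the ratios of the 2 real arrays the fit called 0 genes, with 2414 higher and 1354 lower at an unadjusted p under 0.05.

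The members and lists were chosen with earlier results of these data known. Named were each list's genes past 2-fold on both arrays, otherwise its highest and lowest, the 3 nearest tested genes on each side, the 5 highest and 3 lowest of chromosome 16, and the 3 nearest by ratio. Other genes were named after their values were seen. The number of arrays limits the precision.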

Additional observations from a re-analysis of the deposited data

How the results depend on the processing

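Both genes kept their direction under every alternative run, with Ccdc80 from 3.99 to 4.55 and Tmem45a from 2.55 to 3.06. Each array holds both groups, so every ratio is already a difference within a replicate. The fit on these ratios is therefore itself paired, and no separate paired analysis was run. Without 1 array (the lone array is a value with no test), Ccdc80 ran from 3.99 to 4.40, Tmem45a from 2.55 to 2.92, the chromosome 16 median from 0.071 to 0.16 and that of the neighbours from 0.044 to 0.19. Median centring moved all tested genes to 0.21, Ccdc80 to 4.55, Tmem45a to 3.06, the chromosome to 0.32, the neighbours to 0.27, and the lists to 0.23 (adipogenic), 0.63 (fibronectin), 0.42 (myoblast) and 0.12 (keratinocyte). It gave 3095 called genes, 289 at least 2-fold higher, 6 lower, and 14 higher on chromosome 16. With the processed signals and the deposited table, in that order, genes at least 2-fold higher numbered 234 and 223 and lower 23 and 22, all tested genes stood at -0.0096 and -0.0137, Wnt targets at -0.0099 and -0.0995, and adipogenic genes at 0.28 in both. The processed signals put the fibronectin list at 0.24 and keratinocyte markers at -0.12. With no filter the chromosome had 0.042, Wnt targets -0.044, adipogenic genes 0.059, the fibronectin list 0.24 and keratinocyte markers 0.017. With both dyes above background Wnt targets had -0.051 and the fibronectin list 0.32. Without subtraction and at an offset of 16, adipogenic genes had 0.19. The mean over probes put the fibronectin list at 0.23. Leaving out an array moved Wnt targets to 0.0148 or 0.32, adipogenic genes to 0.16 or 0.19, the fibronectin list to 0.25 or 0.26, myoblast markers to 0.14 or 0.0103 and Srpx2 to -0.27 or 1.61. Single genes that changed sign were Gpc6 (0.15 in both the processed signals and the deposited table, 0.29 without array 1 and -0.71 without array 2), Chrna1 (0.38 by median centring, 0.043 over probes), Fabp4 (0.16 by median centring, 0.043 without array 2), Impg2 (-0.095 by median centring), Tfg (0.29 by median centring, 0.040 without array 2, -0.24 without array 1), Tomm70a (0.11, 0.037 and -0.52 likewise), Nit2 (-0.0028 at offset 16, -0.21 without array 1, 0.22 without array 2), Atg3 (-0.077 without array 1), and Lef1 (0.32 without array 2, -1.17 without array 1). The cause was not tested. The signal over background limits genes whose control was not well above it.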
